A study of Saccharomyces cerevisiae with 6 samples.

Results

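The mRNAs of 44 spore formation genes were examined in meiotic cells that cannot turn on the spore formation program. The genes were chosen by name. They comprise components of the prospore membrane, the meiotic spindle pole and the spore wall, their regulators, and 5 sporulation genes of metabolism or other roles, and all 44 had a row among the 5297 genes listed. Poly(A) RNA had been sequenced from 3 *SPO11* and 3 *spo11-YF* cultures of the SK1 background, collected 4 h after transfer to sporulation medium (the time is from the study's methods). The *spo11-YF* allele carries phenylalanine in place of the tyrosine that cuts DNA, with an HA tag and a *URA3* marker, and makes no meiotic breaks. Cells of both strains are diploid, have *LYS2* inserted at *ho*, and lack *NDT80* (*ndt80Δ::TRP1*) and the phosphatase gene *PPH3* (*pph3Δ::LEU2*). The values describe cells held in meiotic prophase by the loss of Ndt80 and say nothing of the levels these genes reach in cells that complete meiosis. The only value used is the authors' mean normalized count of each gene over all 6 libraries, so neither the spread between cultures nor a difference between the strains is given for any gene, and differences between genes are described without a test. Because long genes collect more reads, levels were compared as mean normalized counts per kilobase of coding sequence, the level from here on.

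Yeast spores form inside the mother cell. At the second meiotic division, the outer plaque of each spindle pole body is rebuilt into a platform on which vesicles fuse to make a prospore membrane. This membrane grows around a nucleus with a protein coat at its leading edge and then closes, and the spore wall is laid down between its layers, from glucan and mannan inside to chitosan and dityrosine outside. The transcription factor Ndt80 switches on most genes of these steps at the end of prophase, through a promoter sequence named the middle sporulation element. Before that, the Sum1 repressor can occupy many of the same sequences. Genes that act earlier, in prophase, are instead controlled largely through URS1, the binding site of Ume6.

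Without Ndt80, transcripts of these genes were listed at levels from near the bottom of the table to well above its middle. The lowest level was that of *SPO77* (YLR341W), 10.7, and the highest that of *SPO1* (YNL012W), 977, a 91.6-fold range. The median of the 44 genes was 103, against 165 for the 5276 listed genes with a coding length. Of the 44 genes, 31 (70.5%) lay below this median of 165 and 19 (43.2%) below the lower quartile of 89.0. Only 5 lay above the upper quartile of 339, namely *SPO1*, *DON1*, *ADY3*, *CRR1* and *MPC54*. The septin gene *SPR3* (165) was just under the median and *PES4* (89.3) just above the lower quartile. Together the 44 genes made up 0.435% of all mean normalized counts, and the 5 highest carried 41.7% of that. The lowest mean normalized count listed for any gene was 8.21, so the ranking covers genes above this floor. Among the members, *SPO77* (15.3) and *DIT2* (22.8) lay closest to it by mean normalized count. *SPO75*, also low by level, had a mean normalized count of 73.5.

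**Figure D1:**
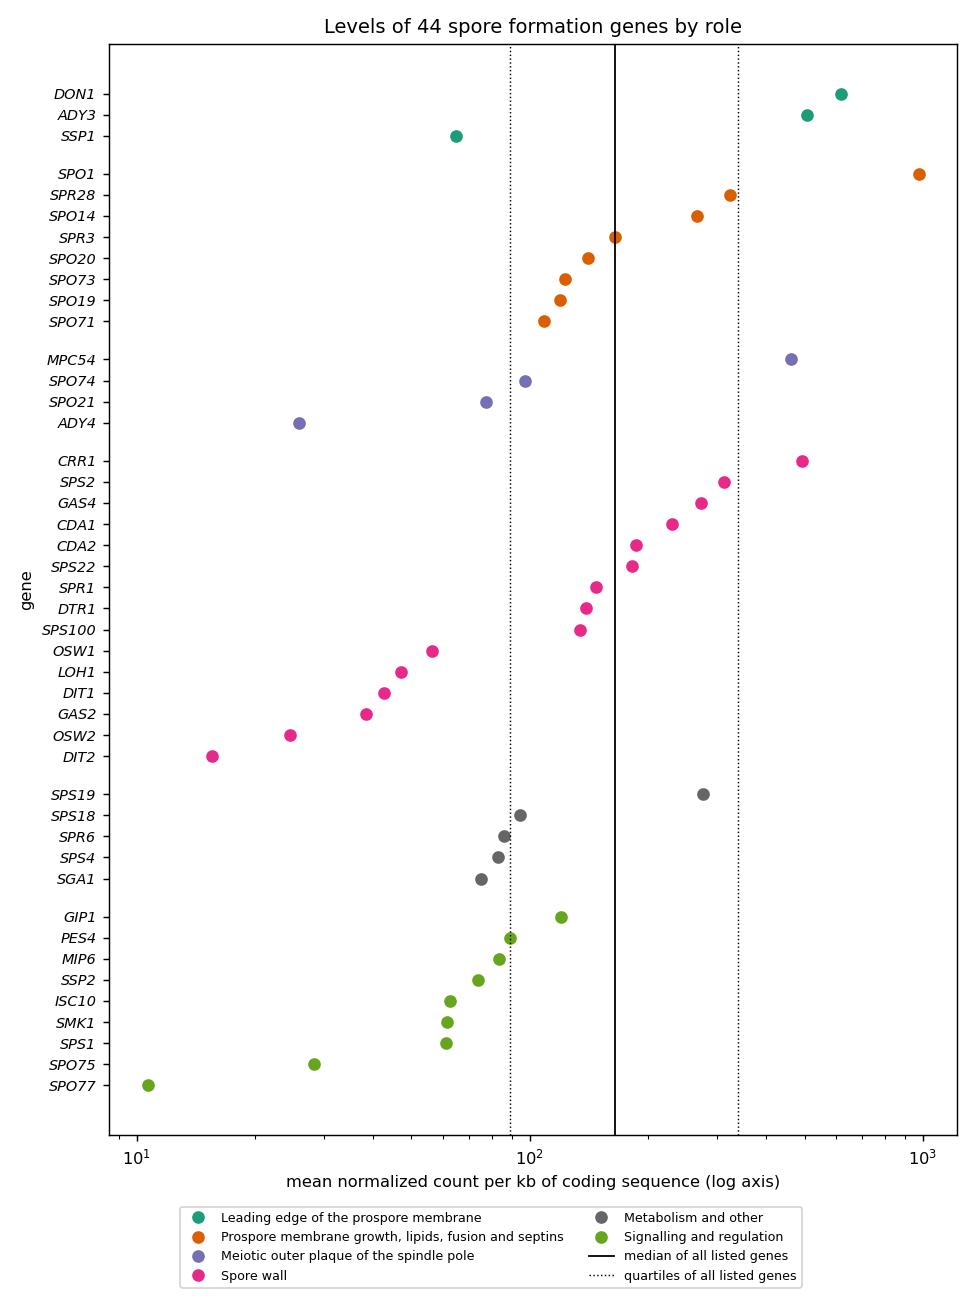
Level (authors' mean normalized count per kilobase of coding sequence, log axis) of each of the 44 genes, 1 point per gene, grouped by role; the solid line is the median of all listed genes (165) and the dotted lines their quartiles (89.0 and 339). All 9 genes of signalling and regulation lie left of the median, and 5 genes from 4 role groups lie right of the upper quartile.

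Early meiotic genes, which are used in prophase, were set beside the spore formation genes. The list was chosen with earlier results of these data known, so it is no independent check of the stage. Of its 24 genes, *ZIP3* and *ZIP4* had no row. All 22 listed genes of that group were above the median of all genes, from *ZIP2* (241) to *DMC1* (7007), with a median level of 1830, which was 17.8-fold above the median of the spore formation genes. No spore formation gene reached this median of 1830, but 10 exceeded *ZIP2*, the lowest early gene. At the other end, 10 of 14 mating genes, which diploid cells switch off, were listed. Their levels ran from 15.1 (*BAR1*) to 69.8 (*GPA1*) with a median of 38.7. *MFA1*, *MFA2*, *STE18* and *HO* had no row. Of the 44 spore formation genes, 13 were at or under the highest mating gene and 31 above it. The levels of these genes therefore overlapped both with genes that are off and with the lower end of the early program. They also overlapped with reference genes used in most cells. Of 8 such genes 7 were listed (*TUB1* had no row), from *TFC1* (121) to *ACT1* (2539), with a median of 317. Among these 7, 2 were below the median of all listed genes.

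**Figure D2:**
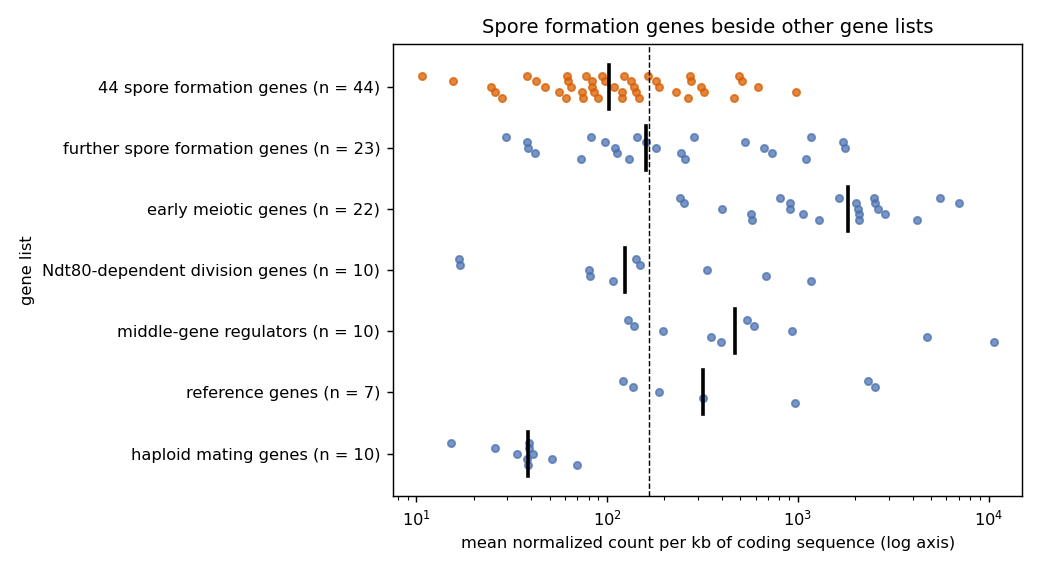
Level (mean normalized count per kilobase, log axis) of the 44 spore formation genes and of 6 other gene lists, 1 point per gene; black bars are list medians and the dashed line is the median of all listed genes (165). The spore formation genes (median 103) lie between the mating genes (38.7) and the early meiotic genes (1830).

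The promoters of the genes were searched for the sites of Ndt80 and Ume6, from 250 bases before to 50 bases after the start codon in the S288C genome (RefSeq, R64; both strands). All 44 windows held ATG at the start codon. The middle sporulation element was searched as GNCACAAA, where N is any base. It was present in 26 of the 44 windows (59.1%), against 4.30% of all 6020 promoter windows. The shorter core CACAAA, which every GNCACAAA contains, was in 36 of the 44 (81.8%), against 18.8% of all windows. Some of the sites are shown for the lowest genes that had one, for some of the highest, and for *SMK1*, each as 30 bases on the strand on which the motif reads GNCACAAA, with the motif in capitals.
SPO77: atataagaaatGTCACAAAatcaaaaatag
OSW2: cctgaattactGACACAAAatgaagggatc
SPO75: aaattctttatGACACAAAttatagcgtgt
GAS2: acaatcagagtGACACAAAttttttcagaa
SMK1: actgttcaagtGTCACAAAttagtggcgcc
SPR28: cttatgggaatGACACAAAatgtagacgca
CRR1: cttttaaaggcGTCACAAAaattatgtaaa

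These sites lie on chromosomes XII (*SPO77*, *OSW2*, *SPO75*, *GAS2*, *CRR1*), XVI (*SMK1*) and IV (*SPR28*) of S288C; coordinates are not given because the reads were mapped to SK1. The genes with the identical 8 bases GTCACAAA included *SPO77*, the lowest of all at 10.7, *SMK1* at 61.7 and *CRR1* at 492. The same letters thus stood before genes at both ends of the range. Over all members, the median level was 91.8 for the 26 genes with GNCACAAA and 121 for the 18 without, and the levels with a match ran from 10.7 to 618. With the shorter core the direction was the other way, at 108 for the 36 genes with CACAAA and 97.3 for the 8 without, and with CACAAA or CGCAAA at 114 for 40 genes and 71.1 for 4. Of the 22 lowest genes 15 had a match, and of the 22 highest 11. The sites were 17 to 222 bases from the start codon with a median of 133, and 23 of the 27 lay 80 to 220 bases from it (a site shared by *SPS18* and *SPS19* is counted for both). In 17 cases the motif read along the gene and in 10 cases against it. The variable base was T in 12 sites, A in 9, C in 5 and G in 1 (*GAS4*).

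The core of URS1 was searched as GGCGGC. It was in 4 of the 44 windows (9.09%), against 5.12% of all windows and 15 of 22 (68.2%) windows of the early meiotic genes. GNCACAAA was in 0 of these 22 early genes, which is near its share of 4.30% in all windows. A longer form of URS1 that contains GGCGGC was also searched. This longer form was in 0 of the 44 windows, against 0.415% of all windows. Of the 4 genes with GGCGGC, 3 are shown in the same way, with that core in capitals on the strand on which it reads so.
ADY3: attgtacaatgGGCGGCtaaagcgcgatac
MPC54: atagagccgagGGCGGCtagagatcaggcg
SMK1: cgaaaaaaataGGCGGCaaaaggcgggtga

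*DON1*, *ADY3* and *MPC54* were 3 of the 5 highest spore formation genes, at 618, 508 and 462. *SMK1* was low, at 61.7. The median of the 4 genes was 485 and that of the 40 others 95.7. These are 4 genes found by a match of 6 letters, and none of them held the longer form of URS1. The other 2 of the 5 highest genes, *SPO1* and *CRR1*, had no GGCGGC.

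**Figure D3:**
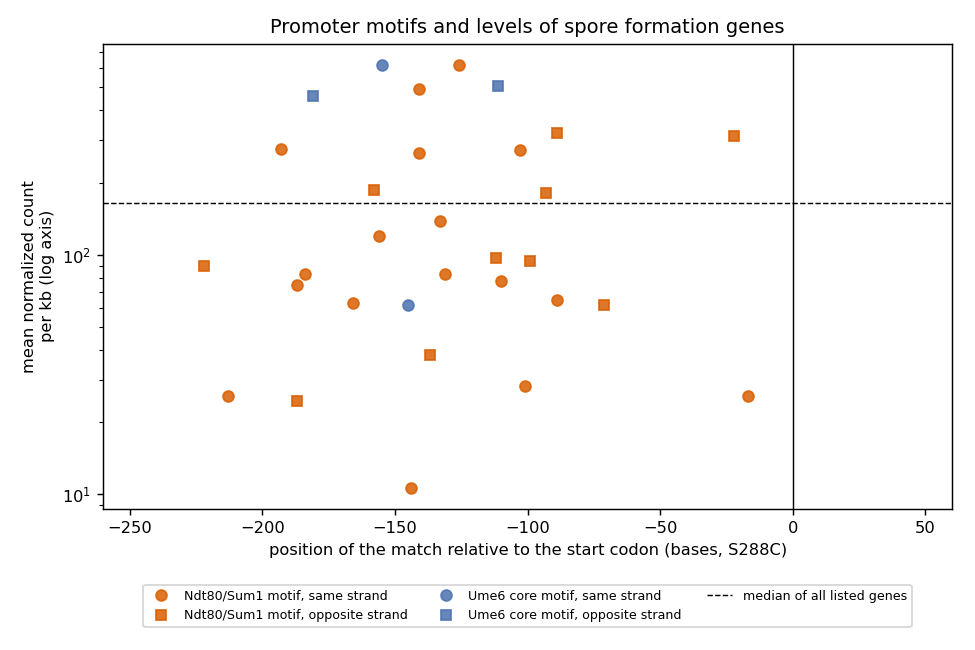
Level of a gene (mean normalized count per kilobase, log axis) against the position of each motif match before its start codon in S288C (bases, 0 is the start codon); orange marks GNCACAAA (27 matches in 26 genes), blue marks GGCGGC (4 genes), circles read along the gene and squares against it. The orange points spread over the whole range from 10.7 to 618, whereas 3 of the 4 blue points lie above 339, the upper quartile of all listed genes.

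The leading edge coat had 2 of the highest members and 1 low one. *ADY3* (YDL239C) had a level of 508 and *DON1* (YDR273W) 618, both above the upper quartile. *SSP1* (YHR184W), whose product is needed for the ring-shaped coat to form, had 64.9, below the lower quartile. Its window held GNCACAAA 89 bases from the start codon and no GGCGGC. The coat genes therefore differed by up to 9.53-fold among themselves.

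The 4 genes of the meiotic outer plaque, the platform from which the membrane starts, were also unequal. *MPC54* (YOR177C) had a level of 462, whereas *SPO74* had 97.1, *SPO21* (also named MPC70) 77.5 and *ADY4* (YLR227C) 25.8. *MPC54* was the only plaque gene above the median of all listed genes. *ADY4*, a component with a part in plaque stability, was the fourth lowest of all 44 genes, and it was the only one with 2 GNCACAAA sites, of which 1 lies 17 bases and the other 213 bases from the start codon. The 2 sites are shown because they belong to one of the lowest genes.
ADY4 far: acctgtccattGCCACAAAagttctattta
ADY4 near: tattgatcataGTCACAAAttgtcggctca

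Genes for the growth of the prospore membrane were the only role group with none below the lower quartile. Among the 8 genes, the median level was 153, and 3 were above the median of all listed genes. *SPO1*, a meiotic relative of phospholipase B, had the highest level of all 44 genes at 977 (mean normalized count 1851). *SPR28*, a sporulation septin, had 322, and the other sporulation septin gene *SPR3* had 165. *SPO14*, the phospholipase D that makes phosphatidic acid for vesicle fusion and is also used outside meiosis, had 266. Its mean normalized count of 1343 was the second highest of the 44 genes, but its coding sequence of 5052 bases is the longest. The lower genes were *SPO20* (141), which encodes a membrane fusion protein of the SNARE family, *SPO73* (123), *SPO19* (119) and *SPO71* (109). *SPO71*, which helps to extend the membrane, ranked at percentile 70.4 by mean normalized count and at percentile 32.3 by level, again because it is long.

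The spore wall genes split into a lower and a higher set. Of the 15 genes, 6 had levels from 15.5 to 56.3 and the other 9 from 134 to 492, with none between. All genes of the lower set were below the lower quartile. They were *DIT2* (15.5) and *DIT1* (42.6), the enzymes of dityrosine synthesis, *OSW2* (24.5), *LOH1* (47.1, also named OSW4) and *OSW1* (56.3) of the outer wall, and *GAS2* (38.2), a glucan-elongating enzyme. The higher set began with *SPS100* (134), a wall maturation gene, *DTR1* (139), the transporter that exports the dityrosine precursor, and *SPR1* (148), a glucanase gene. Above the median of all listed genes lay *SPS22* (181), *CDA2* (187), *CDA1* (230), *GAS4* (273), *SPS2* (312) and *CRR1* (492). The chitin deacetylases Cda1 and Cda2 make the chitosan layer, and Crr1 is related to enzymes that link chitin to glucan. Within the outer layers, the chitosan genes (187 and 230) lay above the median of all listed genes and the transporter *DTR1* (139) below it. The dityrosine synthesis genes lay near the bottom of the table.

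Genes grouped here under signalling and regulation all lay in the lower part of the range. All 9 were below the median of all listed genes and 7 of them below the lower quartile, with a median level of 62.8. *SMK1*, a meiosis-specific MAP kinase of spore wall assembly, had 61.7, its activator *SSP2* 73.8, and *ISC10*, which acts on Smk1, had 62.8. The kinase gene *SPS1* had 61.1 and *SPO77*, which acts with Sps1 in membrane closure, 10.7. *SPO75* had 28.2. The RNA-binding protein genes *PES4* and *MIP6* had 89.3 and 83.3, and *GIP1*, which directs the phosphatase Glc7 to the septins, had the highest level of the 9 at 120. The kinase genes *SMK1* and *SPS1* thus had levels within 1 unit of each other, at percentiles 14.0 and 13.7.

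The remaining 5 genes included enzymes of metabolism. *SPS19*, a peroxisomal reductase of fatty acid breakdown, had 275 and was the only one above the median of all listed genes. *SGA1*, a glucoamylase that degrades glycogen, had 75.0. *SPS4* had 82.9, *SPR6* 85.9 and *SPS18*, which encodes a protein with a zinc finger, 94.3.

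Several members are paralogs or neighbours of each other. None of the 44 coding sequences had a stretch of 31 bases found elsewhere in the S288C genome, so near-identical copies that could exchange reads were not found in that genome. *GAS4* had a level 7.13-fold that of its paralog *GAS2*. *SPS2* was 1.72-fold above *SPS22*, *CDA1* 1.23-fold above *CDA2* and *PES4* 1.07-fold above *MIP6*. With no spread between cultures, only the size of these ratios can be given. *SPS2* also lies next to *SPS1* on the same strand, with 262 bases between them, and its level was 5.10-fold higher.

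There are 2 pairs of members that are transcribed away from each other from a shared region. *SPS18* and *SPS19* are 300 bases apart in S288C and share a single GNCACAAA, which is 99 bases from the start codon of *SPS18* and 193 bases from that of *SPS19*.
SPS18-SPS19: gctggcctaacGTCACAAAatcactttcaa

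*SPS19* (275) was 2.92-fold higher than *SPS18* (94.3), and whether the site has a part in either level was not tested. *DIT1* and *DIT2* are 898 bases apart and neither window held GNCACAAA or CACAAA. Each window reaches 250 bases before its start codon, so the middle of this shared region lies outside both. Both were low, and *DIT1* (42.6) was 2.74-fold higher than *DIT2* (15.5).

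Levels of the genes next to the members were read because transcripts of a neighbour can run into a gene. For 36 of the 44 genes the upstream neighbour was listed, and in 25 of them it had a higher level than the spore formation gene. The members' median was at percentile 30.0 of all listed genes, so most genes of any position exceed it. The median of the upstream neighbours was 181, against 165 for all listed genes. The neighbour was higher in 14 of 22 pairs on the same strand and in 11 of 14 divergent pairs. In divergent pairs the neighbour is transcribed away from the member. Among the 5 highest genes, *SPO1* lies 232 bases downstream of *HEF3* (1059) and *DON1* 341 bases downstream of *GLO2* (638), both on the same strand and with a level close to that of the member. *MPC54* lies 680 bases downstream of *GAC1* (808). *ADY3* exceeded its upstream neighbour *GUD1* (159), and *CRR1* exceeded *FRE1* (206), which is transcribed away from it. In the opposite direction, *SPO77* at 10.7 lies 559 bases downstream of *RPP0* (523) and *MIP6* at 83.3 lies 1631 bases downstream of *SPO13* (2059), both on the same strand. *ISC10* (62.8) faces *DMC1* (7007), the highest of the early meiotic genes. Across the 36 genes, with both orientations together, the rank correlation between member and upstream neighbour was 0.34. It is given as a description because the genes share the same 6 libraries and differ in length and distance. The part of the neighbours in these levels was not tested.

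**Figure D4:**
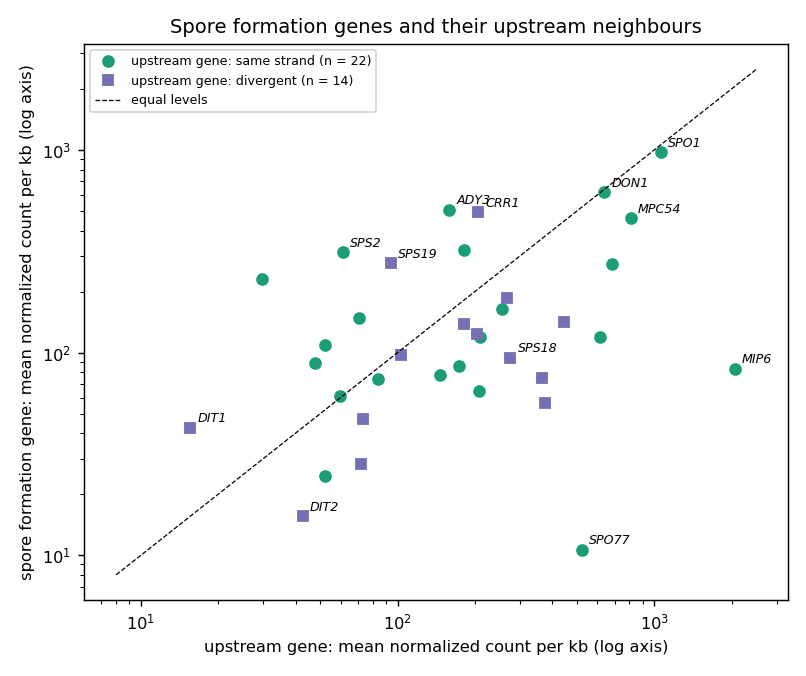
Level of each spore formation gene (vertical, log axis) against the level of the gene upstream of it in S288C (horizontal, log axis), in mean normalized counts per kilobase, for the 36 genes whose upstream neighbour was listed; green circles have the neighbour on the same strand, purple squares transcribed away, and the dashed line marks equal levels. *SPO1* and *DON1* lie near the line, *ADY3* and *CRR1* above it, and *SPO77* and *MIP6* far below it.

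Among 24 further genes with a part in spore formation or its membrane traffic, 23 were listed, with levels from 29.4 (*OSW7*) to 1775 (*SPO24*) and a median of 160. Of these, 6 were below the lower and 7 above the upper quartile, against 19 and 5 of the 44. Several are also used in dividing cells, such as *SSO1* (729), *SEC9* (286) and *CHS3* (255), and below the median of all listed genes *SPC42* (131), *ERV14* (110) and *NUD1* (42.0). *SMA1* (38.1), a prospore membrane gene, and *MUM3* (38.7), of the outer wall, were as low as the lower wall genes. *GSC2* (1108), a glucan synthase, and *AMA1* (1171), an activator of the anaphase-promoting complex, were higher than any of the 44. GNCACAAA was in 4 of the 23 windows (17.4%).

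The regulators of these genes were also measured. *NDT80*, which is deleted, has no row among those analysed here. *SUM1* had a level of 129 and its partners *RFM1* and *HST1* 196 and 538. *IME1*, the activator of the early program, had 4765, and *RIM4*, an RNA-binding protein that holds back translation of middle transcripts, had 10643, above every gene of the other lists. The 10 listed genes for the meiotic divisions ranged from the cyclin gene *CLB1* (16.8) to *AMA1* (1171), with a median of 124. Of these, 7 lay below the median of all listed genes, among them the polo kinase gene *CDC5* (80.2), and 3 above it, including the securin gene *PDS1* (680).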

How the data were processed

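The table analysed has 1 row per gene for 3 *SPO11* and 3 *spo11-YF* libraries. The authors trimmed the reads with Trim Galore, mapped them to SK1 in the nf-core pipeline (STAR), quantified genes with salmon, corrected batches with ComBat-Seq and used DESeq2; versions are not given in the sources used here. The signal used is the authors' deposited mean normalized count of the 6 libraries, which hides the spread and depth of each library. The other numeric columns hold the authors' comparison of the strains (log2 fold change, standard error, statistic and p-values) and were not used, so no test was made.

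Of 5297 rows, 5276 matched the S288C annotation (RefSeq, R64) by systematic name. Levels were divided by the S288C coding length, which can differ from that of SK1. The sum of the mean counts was 2759217. Promoter windows and neighbours were also taken from S288C. Whether counting used strand is not given in the sources used here. For 1 gene the promoter sequence is not reported here. The motif search was tested on simulated sequences with a planted match among G bases only, which cannot test chance matches in promoter-like sequence. Members and lists were chosen with earlier results of these data known. Named are the highest and lowest members of each role group and of all 44, paralogs, divergent pairs and genes with a site shown; other genes named were chosen after their values were seen. Alternatives were no division by length, other background genes, fewer members, and other motifs or windows. Python 3.11.15, pandas 2.3.3, Biopython 1.88 and matplotlib 3.10.9 were used.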

Additional observations from a re-analysis of the deposited data

How the results depend on the processing

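Of 12 alternatives with a value, 10 left the count concerned within 1.5 times. This limit is wide, since 26 genes with GNCACAAA and 36 with CACAAA fall within it. The median of the members, whose unit changes, was not scored by this limit. Without division by length, the median of the members was a mean normalized count of 136.7, at percentile 34.1 of all rows, against percentile 30.0 for the level per kilobase, and 29 instead of 31 genes lay below the median. The number of genes with a middle sporulation element was 26, and 40 when CACAAA or CGCAAA was searched, since shorter motifs match more often (29.1% of all windows). A window of 500 bases before the start, chosen after seeing the data, held GNCACAAA in 28 genes, against 7.76% of all such windows. Without the 8 genes on chromosome XII, also chosen after seeing the data, 14 of 36 genes were below the lower quartile, against 19 of 44.

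No paired analysis was possible because each gene has a single mean for the 6 libraries. Leaving out each replicate was not run for the same reason. As all 44 genes have a row, there was no missing gene to set to the lowest level. Counts near the floor, such as 15.3 for *SPO77*, limit how finely the lowest genes can be ordered.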

Other observations

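Of the 6 lowest spore formation genes, 5 (*SPO77*, *OSW2*, *ADY4*, *SPO75* and *GAS2*) lie on chromosome XII of S288C. That chromosome carries 8 of the 44 genes and 8.53% of the listed genes. The median level of its 8 spore formation genes was 33.2, whereas the median of its 450 listed genes was 162, close to the 165 of all listed genes. Its other members, *CDA2*, *CDA1* and *CRR1*, had levels from 187 to 492. On chromosome IV, which also carries 8 members, their median was 210. The order of the lowest genes depends in part on division by length. By mean normalized count, *SPO77* (15.3) and *ADY4* (38.2) stayed among the lowest. *OSW2* (53.3), *GAS2* (63.8) and *SPO75* (73.5) lay above *LOH1* (31.1) and *OSW1* (47.1), which are on chromosomes X and XV. The chromosome XII pattern was noticed in the data and its cause was not tested.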
